A study of Mus musculus with 3 samples.

Results

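Among the transcripts deposited for the apoptotic bodies (ABs) of mouse osteoclast-lineage cells, 373 rows were annotated as miRNA by GENCODE M21, and 24 of them had 20 or more reads summed over the 3 libraries. These 24 loci are described here. The other 349 miRNA loci fell under this limit, and the table as a whole held 15844 genes. There was 1 library of BMM-ABs (from bone marrow macrophages), 1 of pOC-ABs (from preosteoclasts) and 1 of mOC-ABs (from mature osteoclasts), all of C57BL/6 mice at post natal week 11. BMMs were kept in 50 ng/mL M-CSF. According to the sample labels, both osteoclast groups received 30 ng/mL M-CSF with 100 ng/mL RANKL, the cytokine that drives macrophages into osteoclasts. RANKL was given for 24 h (pOC) or for at least 72 h (mOC). The text of the study instead gives 50 ng/mL M-CSF beside RANKL, and a time for mOC that is longer than 72 h. All 3 groups were then made apoptotic, with 500 μM alendronate for 12 h according to the sample labels, whereas the text of the study names staurosporine. The sample titles name cells and the study speaks of ABs, and how many animals went into a library was not given. With 1 library per group there was no replicate check, so that no p-value or SD is given, and all intervals are exact 95% intervals for counting error only.

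miRNAs are cut from a hairpin in a longer primary transcript. In the nucleus Drosha and Dgcr8 release the hairpin, in the cytoplasm Dicer1 trims it, and a strand of the short duplex enters an Argonaute protein, where its seed pairs with target mRNAs. miRNA loci often lie in introns of protein-coding genes or in exons of long noncoding RNAs, and miRNAs are established regulators of osteoclast formation. The libraries measured here were made from RNA bound to poly-T beads and then fragmented. A mature miRNA has no poly-A tail and is shorter than the fragments such libraries usually hold, so that a read on a locus is taken here as a read of some longer RNA with that sequence.

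The labels of the loci were therefore checked against their sequences and positions. RefSeq (GRCm38.p6) listed mature miRNAs for 10 of the 24 loci, with 13 mature sequences and 13 different seeds, none of them shared. The other 14 had none. They were 13 loci with a Gm name and Snord43, which bears the name of a snoRNA, a guide of RNA methylation. These 14 held 86.3% of all reads of the 24 loci. The loci without a mature miRNA are called miRNA loci below only because the annotation types them so.

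The mature sequences that follow are examples that were found in other genes, only in genes holding the locus, or in none. Bases 2 to 8, the seed, are in capitals. mmu-miR-682 was found in 7 genes that are not miRNA genes, 6 of them away from the locus. mmu-miR-692 was likewise found in 7, with 6 away from it, and mmu-miR-8114 in Glul. In Stub1 the search found both arms of miR-3082, which are not printed here. Both arms of miR-22 were found only in genes that hold the Mir22 locus, and mmu-miR-6236 in none. The search covered GENCODE M21 transcripts only, so it cannot show a source outside that annotation.
mmu-miR-682: cUGCAGUCacagugaagucug
mmu-miR-692: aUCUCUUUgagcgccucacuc
mmu-miR-8114: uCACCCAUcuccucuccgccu
mmu-miR-22-5p: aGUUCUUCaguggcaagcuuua
mmu-miR-22-3p: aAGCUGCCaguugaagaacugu
mmu-miR-6236: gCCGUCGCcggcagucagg

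Groups of near-identical loci make up much of the set, and 3 of these groups are shown by their GENCODE M21 transcripts on GRCm38. The first was compared with a stretch of 96 bases inside the coding sequence of Rpl37a, a protein of the large ribosomal subunit (transcript ENSMUST00000059980, bases 182 to 277). Capitals mark every base that differs from Rpl37a. Mir682 differed at 1 base, and Gm24865 and Gm22758 at 3 bases each.
Rpl37a: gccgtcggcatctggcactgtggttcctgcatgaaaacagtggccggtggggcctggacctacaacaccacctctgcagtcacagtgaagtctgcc
Mir682: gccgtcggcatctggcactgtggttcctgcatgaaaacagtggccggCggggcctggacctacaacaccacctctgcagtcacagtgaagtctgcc
Gm24865: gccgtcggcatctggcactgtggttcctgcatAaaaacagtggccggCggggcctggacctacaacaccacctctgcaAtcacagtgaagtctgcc
Gm22758: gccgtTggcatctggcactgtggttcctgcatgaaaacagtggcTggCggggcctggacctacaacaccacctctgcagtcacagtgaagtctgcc

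The second group holds Gm24270, Gm24245 and Gm24187. Gm24270 and Gm24245 were the same over all 57 bases, and the capital marks the 1 base at which Gm24187 differed.
Gm24270: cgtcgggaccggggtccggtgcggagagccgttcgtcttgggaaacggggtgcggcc
Gm24245: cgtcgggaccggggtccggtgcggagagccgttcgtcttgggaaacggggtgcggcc
Gm24187: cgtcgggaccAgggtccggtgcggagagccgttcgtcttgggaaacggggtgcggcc

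In the third, Gm27597 and Gm27529 carried the same 80 bases, a piece of the coding sequence of the ribosomal protein gene Rpl19 and of its pseudogene Rpl19-ps6.
Gm27597: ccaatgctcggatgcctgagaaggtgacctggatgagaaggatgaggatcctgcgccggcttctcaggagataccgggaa
Gm27529: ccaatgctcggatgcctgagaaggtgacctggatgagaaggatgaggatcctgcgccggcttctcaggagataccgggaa

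For contrast, the RefSeq hairpin of Mir22 (chr11:75463716-75463810, plus strand) is given with both mature arms in capitals. It had no copy elsewhere at the limit used below.
Mir22: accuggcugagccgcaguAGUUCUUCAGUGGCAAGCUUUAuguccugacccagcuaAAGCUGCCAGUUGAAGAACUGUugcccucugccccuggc

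Each locus was placed by the listed transcripts of genes on its strand, or by annotated ones where none was listed. By this rule 13 loci lay mostly in an exon of another annotated gene, 7 in an intron, and 4 overlapped no gene. Mir3082 counts as intronic by the listed Stub1 transcript, although its mature arms were also found within an annotated transcript of Stub1. The 13 exonic loci held 99.5% of the reads, the 7 intronic ones 0.329% and the other 4 held 0.132%. A copy in another gene that did not overlap the locus, with at least 95% identity over at least 90% of it, was found for 13 loci, and these held 99.2% of the reads. The 24 loci were 57 to 133 bases long, with a median GC content of 57.5%. Their predicted folding energy had a median of -36.5 kcal/mol per 100 bases, beside -38.8 for the loci under the limit. The GC content of the loci under the limit had a median of 56.2%.

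The 3 libraries held 12734764 (BMM-ABs), 11865332 (pOC-ABs) and 11556957 (mOC-ABs) mRNA and lncRNA reads. The 24 loci took 29117, 41589 and 35748 of them, which is 0.320%, 0.563% and 0.464% of the mRNA reads. Gm47299 alone made up 72.8%, 79.6% and 73.7% of these. Without it the loci held 7926, 8486 and 9418 reads. As a check of the cells, 10 osteoclast markers summed to 246, 362 and 1247 RPM (reads scaled to the library total) in the same order, with 9 of the 10 read here and Calcr not analysed, and 8 macrophage markers to 1895, 897 and 930. Single markers differed from these sums. Nfatc1 held most of the osteoclast marker reads (2566, 2772 and 8463), and Itgb3 fell (6, 3 and 0 reads). Among the macrophage markers Cd68 was only 1.29-fold and 1.19-fold lower in pOC-ABs and mOC-ABs, and Mertk had 0, 2 and 5 reads. A marker without a row was not analysed and added nothing to its sum, which held for the 6 neutrophil and 4 erythroid markers, so that these cell types were not checked. The T cell, osteoblast and endothelial markers that could be read summed to at most 4.07 RPM. Only 1 of 4 T cell, 1 of 4 osteoblast and 3 of 4 endothelial markers were read, so these cell types were checked only in part. Kdr held most of the endothelial marker reads (15, 8 and 38), and Cdh5 had 5, 3 and 0. Ighm, the heavy chain of IgM made by B cells, had 2193, 669 and 158 reads, and Cd79a, a part of the B cell receptor, had 2, 1 and 0. The part of these markers in the results below was not tested, and in such pooled RNA fewer bodies from a cell type cannot be told apart from less of an RNA in each. Below, 3 values in a row keep this order of BMM, pOC and mOC libraries, and highest or lowest refers to reads as listed.

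**Figure D1:**
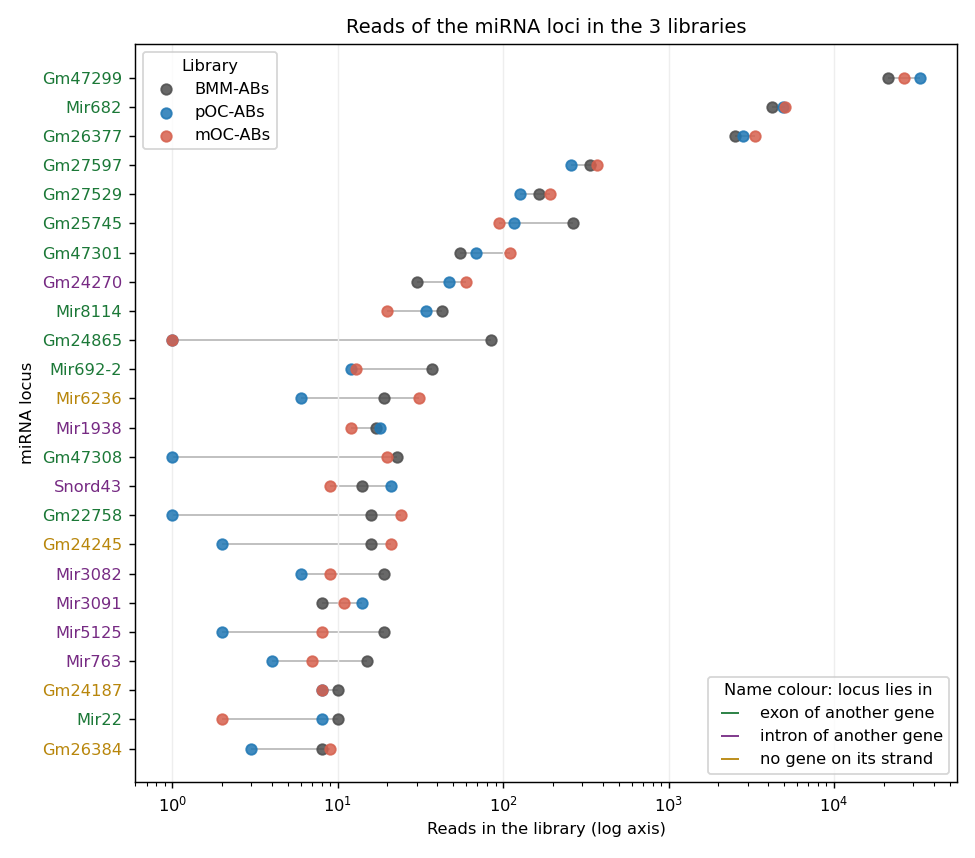
Reads of each of the 24 miRNA loci (vertical axis, most reads at the top) on a log axis, with 1 point per library and a grey line over the range. Gm47299, Mir682 and Gm26377 have at least 2524 reads in every library, and Gm24865, Gm47308 and Gm22758 have a point at 1 read.

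The loci were chosen by their read sums over the libraries compared here, so these sums are given as a description only. They ran from 80624 for Gm47299 to 20. The last loci inside the limit were Gm24187 with 26 reads, Mir22 with 20 and Gm26384 with 20. The first outside were Gm23812 with 15 reads (13, 1 and 1), Mir1932 with 13 and Mir8112 with 13. Of the 349 loci under the limit, 296 had 0 to 5 reads, 46 had 6 to 10 and 7 had 11 to 19. A value of exactly 1 in all 3 libraries was listed for 207 of the 373 miRNA rows (55.5%), beside 284 of 27924 protein-coding rows (1.02%), 85 of 286 snoRNA rows (29.7%) and 19 of 110 snRNA rows (17.3%). How the counting arrived at a value of 1 was not stated in the sources used here, so such a value may not be a single observed read.

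Gm47299 (chr12:69361179-69361258, minus strand) overlapped Rn7s2 with 77 of its 80 bases. Rn7s2 encodes 7SL, the RNA of the signal recognition particle that takes nascent secretory proteins to the endoplasmic reticulum. Gm47299 had 21191, 33103 and 26330 reads. Rn7s2 had 400288, 650127 and 517994. The locus and its host gene thus followed the same order, highest in pOC-ABs, and the reads of the locus were 5.29%, 5.09% and 5.08% of those of Rn7s2. A further 7SL gene with a full copy, Rn7s1, had 1201201, 1759372 and 1507297 reads, again highest in pOC-ABs. 7SL, a product of RNA polymerase III, was thus abundant in all 3 libraries although they were made from RNA bound to poly-T beads.

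Gm26377 (chr9:78478528-78478635, minus strand) lay within the 3′ UTR of Eef1a1, the elongation factor that brings aminoacyl-tRNA to the ribosome. It had 2524, 2835 and 3317 reads, and Eef1a1 had 92919, 90936 and 112290. Both were highest in mOC-ABs. Gm26384 (chr17:21284103-21284212, minus strand), which matched Gm26377 at 98.2% identity with 2 gap bases and overlapped no gene on its strand, had 8, 3 and 9 reads. The reads of Gm26377 were 2.72%, 3.12% and 2.95% of those of the gene that holds it.

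The Rpl19 pair is split between the gene and a pseudogene. Gm27597 (chr11:98029413-98029492, plus strand), in a coding exon of Rpl19, had 337, 256 and 368 reads. Gm27529 (chr15:7975328-7975407, plus strand), in an exon of Rpl19-ps6, had 164, 126 and 192. Both were lowest in pOC-ABs and highest in mOC-ABs. Rpl19 itself had 2379, 2451 and 2552 reads, fewer than its pseudogene Rpl19-ps11 with 11338, 13604 and 12115, which has a full copy of the 80 bases. In all, 20 genes other than the host carried a copy of the stretch of Gm27597. Reads from such copies cannot be told apart by sequence, and the values of these 2 loci are uncertain for that reason.

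Gm25745 (chr10:86705316-86705448, minus strand) overlapped an exon of Hsp90b1, the endoplasmic reticulum chaperone also called Grp94, with 40 of its 133 bases coding and the rest in the 5′ UTR. It had 263, 116 and 95 reads. Hsp90b1 had 2931, 1790 and 1735. The locus was 2.11-fold lower in pOC-ABs (interval 1.69 to 2.65) and 2.51-fold lower in mOC-ABs (1.98 to 3.21) than in BMM-ABs. Relative to Hsp90b1 these differences were 1.38-fold (1.10 to 1.75) and 1.64-fold (1.28 to 2.11). Gm25745 had no copy in another gene, and it was the only locus of 100 or more reads that was over 2-fold lower in either osteoclast library. This depended on the scaling. In pOC-ABs it was 1.84-fold lower with the mRNA total, 1.78-fold with median-of-ratios size factors and 1.67-fold with the upper quartile. In mOC-ABs it stayed over 2-fold lower except with the upper quartile, which gave 1.999-fold.

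Mir8114 (chr1:153899926-153900036, plus strand) overlapped the 5′ UTR of Glul, glutamine synthetase, with 93 of its 111 bases. It had 43, 34 and 20 reads, and Glul had 526, 380 and 329. Both were highest in BMM-ABs and lowest in mOC-ABs. In mOC-ABs Mir8114 was 1.95-fold lower than in BMM-ABs (1.12 to 3.50), which was 1.34-fold more than Glul (0.758 to 2.46), a difference that counting error covers.

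Mir682 was the member with a mature miRNA that had the most reads. It lies on chr13:75645046-75645141 (plus strand) in the processed pseudogene Gm4149, a copy of Rpl37a mRNA. It had 4195, 4896 and 5071 reads, and Gm4149 had 4006, 4989 and 4798. The reads of the locus were 105%, 98.1% and 106% of those of the pseudogene, so that the 96 bases were listed with about as many reads as the whole pseudogene around them. The Rpl37a gene, by contrast, was listed with 467, 732 and 649. The mature miR-682 sequence stands within the Rpl37a-like stretch, as printed above, and a read of its bases could come from any of the 7 genes that hold it.

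Gm24865 (chr7:25828632-25828727, minus strand) and its host, the processed pseudogene Gm4613, showed the most unequal reads among the 24 loci. Gm24865 had 84, 1 and 1 reads. Gm4613 had 34, 441 and 419. The locus was high where the pseudogene was low. Summed with all listed rows that overlap it, an unannotated lncRNA included, the region had 119, 453 and 424 reads. The sum was higher in both osteoclast libraries, where the locus alone was lower.

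Gm22758 (chr2:156410929-156411024, minus strand), inside the processed pseudogene Gm14173, had 16, 1 and 24 reads, beside 16, 42 and 32 for Gm14173. Only the pOC-AB value of the locus stood apart. Added together, locus and pseudogene had 32, 43 and 56 reads. The 3 Rpl37a-like loci summed to 4295, 4898 and 5096 reads, which was 1.22-fold higher in pOC-ABs and 1.31-fold higher in mOC-ABs than in BMM-ABs.

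Mir692-2 (chr4:125504749-125504857, plus strand) overlapped the ferritin light chain pseudogene Ftl2-ps with 91 of its 109 bases, within an intron of Grik3, which was not listed. It had 37, 12 and 13 reads, and Ftl2-ps had 77, 95 and 111. The locus was highest in BMM-ABs and the pseudogene in mOC-ABs. Ftl1, the ferritin light chain gene itself, matched the locus at 97.2% identity and had 16093, 13965 and 18664 reads, and Ftl1-ps1, a full copy, had 11096, 9638 and 11369. The sum of Mir692-2 and Ftl2-ps was 114, 107 and 124 reads.

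Gm47308 (chr9:64726624-64726730, minus strand) lay in a coding exon of Rab11a, a GTPase of recycling endosomes. It had 23, 1 and 20 reads, while Rab11a had 343, 433 and 342. The pOC-AB library was lowest for the locus and highest for the gene. Together they had 366, 434 and 362 reads.

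Gm47301 (chr4:149817764-149817823, plus strand) lay in n-R5s193, a copy of 5S ribosomal RNA that was not listed, and 69 further genes carried a near-identical sequence. It had 55, 69 and 110 reads. It was 2.20-fold higher in mOC-ABs than in BMM-ABs (1.58 to 3.10). Of the other listed 5S copies, n-R5s33 had 36, 5 and 43 reads and n-R5s118 had 7, 17 and 26, also highest in mOC-ABs.

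Mir22 (on the coordinates printed above) was the only member whose hairpin lay in an exon of a known primary miRNA transcript. This transcript, Mir22hg, had 92, 48 and 41 reads, and Mir22 had 10, 8 and 2. Both were highest in BMM-ABs. Mir22hg was 1.79-fold lower in pOC-ABs and 2.04-fold lower in mOC-ABs than in BMM-ABs. Mir22 was 4.54-fold lower in mOC-ABs than in BMM-ABs, but with 2 reads the interval ran from 0.967 to 42.6.

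The 7 intronic loci had 112 to 122 reads in all per library, and Gm24270 had the most of them in each. Gm24270 (chr9:56223715-56223771, minus strand), in an intron of Peak1, a cytoskeletal pseudokinase, had 30, 47 and 60 reads, while Peak1 had 3755, 2371 and 2280. The locus was lowest and the gene highest in BMM-ABs. Its exact copy Gm24245 (chr4:139338304-139338360, plus strand) had 16, 2 and 21 reads and the near copy Gm24187 (chr13:9834469-9834525, minus strand) had 10, 8 and 8, neither in a gene. The 3 loci together had 56, 57 and 89 reads, which was 1.75-fold higher in mOC-ABs than in BMM-ABs (1.24 to 2.49). Reads of identical loci cannot be assigned by sequence, which is why the sum is given beside the single values.

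Snord43 (chr15:80082847-80082954, minus strand) had 14, 21 and 9 reads and lies in an intron of Rpl3, a ribosomal protein gene with 1763, 1269 and 1421 reads. Mir3091 (chr2:180257536-180257611, plus strand) had 8, 14 and 11 reads in an intron of the ribosomal protein gene Rps21 with 1448, 1293 and 1622. Both loci were highest in pOC-ABs, where both genes were lowest. Mir1938 (chr12:40222712-40222811, minus strand) had 17, 18 and 12 reads in an intron of Ifrd1, a transcriptional coregulator with 970, 707 and 511. For each of these 3 loci the interval of every ratio between libraries included 1.

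The other 3 intronic loci were highest in BMM-ABs and lowest in pOC-ABs. Mir3082 (chr17:25831365-25831428, minus strand) had 19, 6 and 9 reads, with 63 of its 64 bases in an intron of the listed transcript of Stub1, a chaperone-associated ubiquitin ligase with 997, 860 and 982 reads. Mir5125 (chr17:23823291-23823369, plus strand) had 19, 2 and 8 reads in an intron of Srrm2, a splicing factor of nuclear speckles with 6896, 4767 and 4867. Mir763 (chr10:120447991-120448110, minus strand) had 15, 4 and 7 reads in an intron of the chromatin protein gene Hmga2 with 769, 905 and 705. Each of the 3 hosts had at least 705 reads in every library, so that counting error came almost wholly from the locus. Mir6236 (chr9:110281287-110281409, plus strand), in no other annotated gene, had 19, 6 and 31 reads, lowest in pOC-ABs and highest in mOC-ABs.

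Read ratios between libraries were taken after division by the library totals, and a locus was called when the ratio was over 2 or under 0.5. In G1, pOC-ABs over BMM-ABs, 0 of 24 loci were called higher and 11 lower, or 45.8%, where of all rows with 20 or more reads 37.7% were called, 11.8% higher and 25.9% lower. The lower loci were Gm25745, Gm24865, Mir692-2, Mir6236, Gm47308, Gm22758, Gm24245, Mir3082, Mir5125, Mir763 and Gm26384. For 10 of these, all but Gm26384, the interval left out 1, beside 33.4% of all rows (10.3% higher, 23.1% lower). The median log2 ratio of the loci was -0.29, and that of all rows was also -0.29. Of the 8 loci with 100 reads or more 1, Gm25745, was called (12.5%), beside 29.4% of all rows with as many reads. The split depended on the scaling. Dividing by the upper quartile of the mRNA rows moved the median of all rows by 0.34 in G1, by 0.33 in G2 and by -0.01 in G3. In G1 it gave 4 higher and 9 lower loci of 24, beside 36.3% of all rows in either direction. The median was then 0.05 for the loci and for all rows.

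Values of 1 or 2 reads in pOC-ABs decided the widest G1 ratios. Gm24865 was 78.3-fold lower (13.7 to 3128), Gm47308 21.4-fold (3.48 to 883) and Gm22758 14.9-fold (2.32 to 625), each with 1 read in pOC-ABs. Mir5125 was 8.85-fold lower (2.14 to 78.4) and Gm24245 7.45-fold (1.75 to 66.8), each with 2 reads. These sizes rest on a count of 1 taken as it stands. With the values of 1 raised to 3 reads, an alternative chosen after the data were seen, Gm24865 was 26.1-fold lower, Gm47308 7.14-fold and Gm22758 4.97-fold, and 11 loci were called lower as before. The 3 loci with the most reads differed far less. Gm47299 was 1.68-fold higher in pOC-ABs (1.65 to 1.71), Mir682 1.25-fold (1.20 to 1.31) and Gm26377 1.21-fold (1.14 to 1.27). These values left their intervals under other scalings. Gm47299 was 1.92-fold higher with the mRNA total, 1.99-fold with median-of-ratios size factors and 2.12-fold with the upper quartile, where it was called. With the upper quartile Mir682 was 1.59-fold and Gm26377 1.53-fold higher. The library totals used as divisor include the reads of Rn7s1 and Rn7s2.

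In G2, mOC-ABs over BMM-ABs, 2 of 24 loci were called higher and 5 lower (29.2% in all), beside 39% of all rows, 11.9% higher and 27.1% lower. The higher loci were Gm47301 and Gm24270, both with the interval beyond 1. The lower loci were Gm25745, Gm24865, Mir692-2, Mir5125 and Mir22, of which the first 3 had the interval beyond 1. The 5 called loci with such an interval were 20.8% of the members, and 34.4% of all rows met the same rule, 10.7% higher and 23.7% lower. The median log2 ratio was 0.10 for the loci and -0.28 for all rows. Of the 8 loci with 100 reads or more 3 were called, Gm25745, Gm47301 and Gm24270 (37.5%), beside 29.3% of all such rows. With the upper quartile as the scale 4 of 24 loci were higher and 3 lower, beside 37% of all rows in either direction.

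In G3, mOC-ABs over pOC-ABs, 23 loci had a ratio, and 6 were called higher and 2 lower (34.8% in all), beside 35.4% of all rows, 16.9% higher and 18.5% lower. Gm24865, with 1 read in both libraries, was given no ratio. The higher loci were Mir6236, Gm47308, Gm22758, Gm24245, Mir5125 and Gm26384, and the first 4 of these had the interval beyond 1. The lower loci, Snord43 and Mir22, did not. Of all rows 29.5% had such an interval, 14.1% higher and 15.4% lower. G1 and G3 share the pOC-AB library, so that a low value there enters both. Of the 8 loci with 100 reads or more 0 were called, beside 26.6% of all such rows. The median log2 ratio was 0.39 for the loci and 0.04 for all rows.

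**Figure D2:**
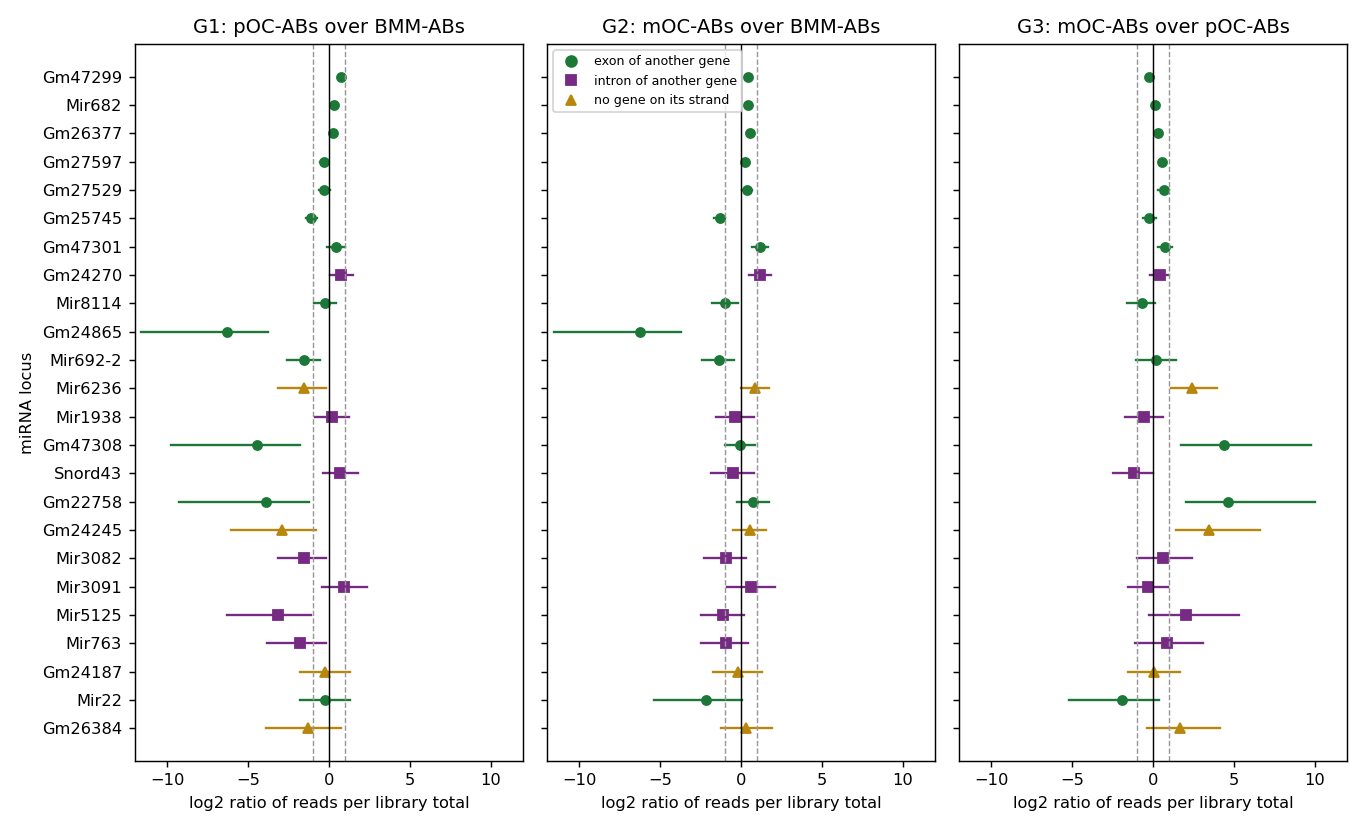
Log2 ratio of reads per library total for each locus in G1, G2 and G3, with exact 95% intervals for counting error; dashed lines stand at the 2-fold limits, and colour and shape give where the locus lies. Gm47299, Mir682 and Gm26377 stay between the dashed lines in all panels, and the widest intervals belong to loci with 1 or 2 reads in a library.

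A host gene whose listed span holds the locus on the same strand was present for 15 loci, and 3 more (Gm47299, Mir8114 and Mir692-2) overlapped a host in part. For each of the 15 the ratio of the locus was divided by that of the host. In G1, 2 of 15 loci were over 2-fold higher than their host, Gm24270 and Snord43, and 6 were lower, Gm24865, Gm47308, Gm22758, Mir3082, Mir5125 and Mir763. This was 53.3%, beside 46.3% of all rows set against the rest of their gene (21.2% higher, 25.2% lower). In G2, 1 was higher (Gm24270) and 3 lower (Gm24865, Mir3082 and Mir22), or 26.7%, beside 47.7% (20.9% higher, 26.8% lower). In G3, 4 of 14 were higher (Gm47308, Gm22758, Mir5125 and Mir763) and 2 lower (Snord43 and Mir22), or 42.9%, beside 47.1% (22.4% higher, 24.7% lower).

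Exonic loci with 100 reads or more and a listed host stayed within the 2-fold limit of it. Gm47299 differed from Rn7s2 by 1.04-fold in G1 (1.02 to 1.06), by 1.04-fold in G2 (1.02 to 1.06), and the interval in G3 was 0.985 to 1.02. Mir682 differed from Gm4149 by 1.07-fold, 1.01-fold and 1.08-fold. Gm26377 differed from Eef1a1 by 1.15-fold, 1.09-fold and 1.06-fold. Gm27597 was 1.36-fold lower than Rpl19 in G1 (1.14 to 1.62) and 1.38-fold higher in G3 (1.16 to 1.64). Gm25745 was 1.38-fold lower than Hsp90b1 in G1 (1.10 to 1.75) and 1.64-fold lower in G2 (1.28 to 2.11). Several of these intervals thus left out 1. They treat the reads of a locus and its host as separate counts, and how shared reads were divided was not given.

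Gm24270, the intronic locus with the most reads, differed from its host. Relative to Peak1 it was 2.48-fold higher in G1 (1.53 to 4.07) and 3.29-fold higher in G2 (2.08 to 5.31). Its copies elsewhere, printed above, mean that the reads need not come from Peak1. Copies were sought among GENCODE M21 transcripts only, so sources outside that annotation were not searched for. Snord43 was 2.08-fold higher than Rpl3 in G1 (1.01 to 4.45) and 2.61-fold lower in G3 (1.14 to 6.50). Mir763 was 4.41-fold lower than Hmga2 in G1 (1.40 to 18.3), and Mir5125 was 6.57-fold lower than Srrm2 (1.58 to 58.2). Mir3082 was 2.73-fold lower than Stub1 in G1 (1.04 to 8.39). Mir22 against Mir22hg and Tlcd2, the genes whose spans hold it, was 2.45-fold lower in G2 with an interval of 0.491 to 23.7, which includes 1.

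**Figure D3:**
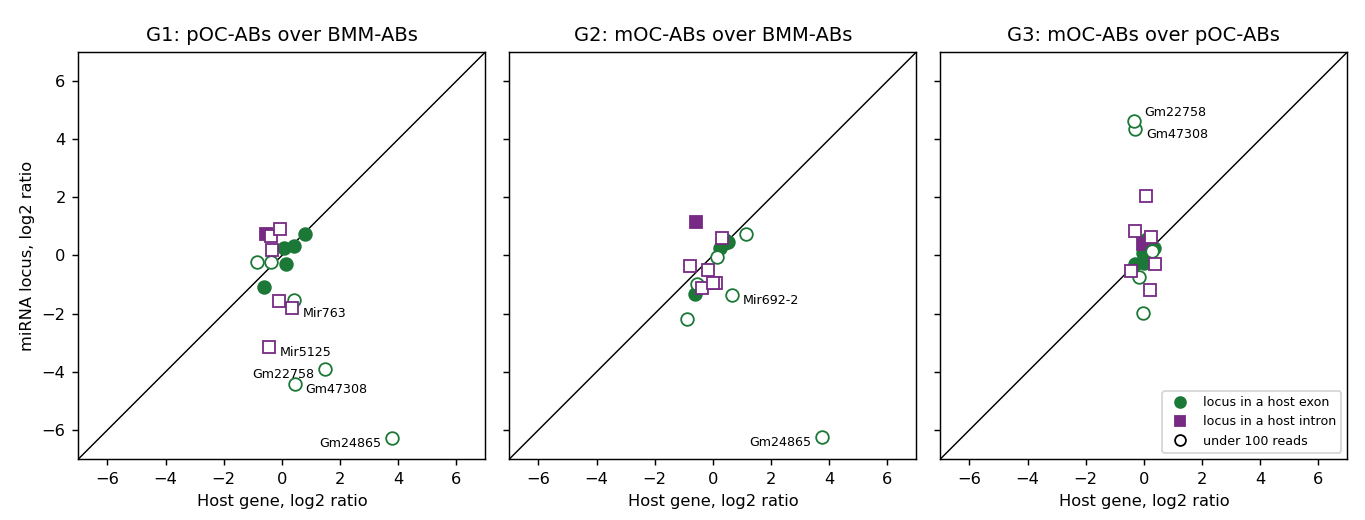
Log2 ratio of the locus (vertical) against that of its host gene (horizontal) in G1, G2 and G3; the line marks equal ratios, filled points have 100 or more reads over the libraries, and loci more than 2 log2 units off the line are named. Of the filled points Gm24270 lies farthest from the line in G1 and G2 (2.48-fold and 3.29-fold), and of all points Gm24865 does.

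Levels per length were compared as RPKM, the reads divided by length and library total, for 18 loci and their hosts. Exonic loci had a median ratio of locus to host of 1.32 over libraries and intronic loci of 0.258. Of 11 exonic loci 3 were above the host in all libraries and 2 below it. Of 7 intronic loci 0 were above and 6 below, the exception being Gm24270. Gm47299 had levels of 20800, 34874 and 28478.5 RPKM, about 0.199, 0.191 and 0.191 of the level of Rn7s2. Mir3091 had 8.27, 15.5 and 12.5 RPKM, which was 0.0287, 0.0563 and 0.0353 of the level of Rps21. How the counting divided reads that lie in both a locus and its host transcript was not given in the sources used here.

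**Figure D4:**
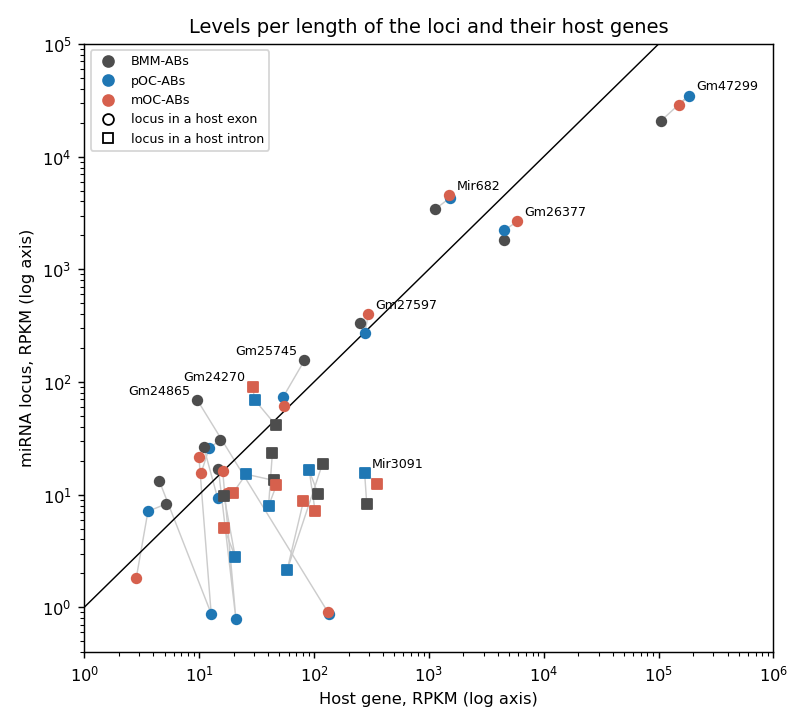
Level in RPKM of each locus (vertical) against its host gene (horizontal) in the 3 libraries, both on log axes, with a grey line joining the libraries of a locus; the black line marks equal levels, circles are loci in host exons and squares loci in host introns. The squares lie below the black line except for Gm24270 in pOC-ABs and mOC-ABs.

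A list of 47 loci of miRNAs known from macrophages and osteoclasts, all in GENCODE M21, was looked up, and 18 had a row. Of these 18, 1 reached 20 reads, Mir22, beside 24 of all 373 miRNA rows (6.43%). The next had 9 reads (Mir18). The median was 3, the same as over all miRNA rows. Mir21a, Mir155, Mir223, Mir29a, Mir31 and Mir34a were among the 29 without a row. All 18 together had 37, 28 and 22 reads. Among the host genes named after miRNAs, Mir99ahg had 308, 164 and 87 reads and was 1.75-fold lower in pOC-ABs and 3.21-fold lower in mOC-ABs than in BMM-ABs. Mir17hg had 7, 2 and 4.

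The machinery that makes and uses miRNAs was well covered. A list of 28 names stood for 25 of these genes, since Zcchc11, Zcchc6 and Ksrp are older names of Tut4, Tut7 and Khsrp. Of the 25 genes 23 had rows, Lin28a and Lin28b were not analysed here, and 0 of the 23 passed the 2-fold limit in G1, G2 or G3, where 15.4%, 17% and 12.4% of all gene sums did. The 23 genes had 111 reads or more in every library, and the gene sums were not limited to such depth. Drosha, the nuclear nuclease, had 963, 825 and 962 reads, and Dicer1 had 1032, 759 and 962. Both were lowest in pOC-ABs. Ago2, the slicing Argonaute and that with the most reads among the Argonaute genes, had 10250, 6183 and 7456 reads and was 1.54-fold lower in pOC-ABs than in BMM-ABs. Ago4 was 1.80-fold higher in mOC-ABs than in pOC-ABs, with 171 and 300 reads. The median log2 ratio of the 23 genes was -0.31, -0.08 and 0.26 in G1, G2 and G3, beside -0.22, -0.18 and 0.04 for all gene sums.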

How the data were processed

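The authors deposited tables of mRNA, lncRNA and circRNA transcripts. Per the labels, RNA from a column kit was bound to poly-T beads, made into libraries with a TruSeq kit that does not mark strand, and sequenced in pairs. The submitters' processing notes name FastQC, HISAT2, StringTie and GRCm38, without versions. The deposited mRNA and lncRNA tables give read counts and FPKM per transcript. The authors' FPKM in the mRNA table equals the count divided by transcript length and by the total of that table. It served only as an alternative. The circRNA table was not used here.

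Transcript types and positions came from GENCODE M21 and mature sequences from RefSeq. Members were the miRNA rows with 20 or more reads over 3 libraries. Members and lists were chosen with earlier results of these data known. Reads were divided by the sum of mRNA and lncRNA counts of the library, and a ratio over 2 or under 0.5 was called. A count of 0 was set to 3 reads, and no ratio was taken where both values were 3 or fewer. Intervals of ratios are exact binomial (Clopper-Pearson), and those against a host are exact conditional intervals of the odds ratio. Both cover counting error only, since reads carry no molecular identifiers. With 11556957 to 12734764 reads per library, 3 reads are 2.36e-05% to 2.60e-05% of a library. A host was a gene on the same strand whose span holds the locus, with all its listed transcripts summed. Copies were sought with blastn 2.17.0 among GENCODE M21 transcripts only, not in the genome. Folding energies came from RNAfold 2.7.2, and other values from Python 3.11.15, scipy 1.17.1 and pandas 2.3.3. The interval code was tested on simulated data. All members were named, since there were 40 or fewer. Alternatives were other scalings (mRNA total, median-of-ratios size factors, upper quartile at percentile 75), a pseudocount of 1 read, FPKM, a minimum of 50 reads or of 1 read, intervals leaving out 1, and other definitions of the host. Hosts overlapping in part and values of 1 raised to 3 reads were added after seeing the data.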

Additional observations from a re-analysis of the deposited data

How the results depend on the processing

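The counts of called loci stayed within 1.5 times under the other scalings, a pseudocount of 1 read, FPKM and values of 1 raised to 3 reads. The loci called were not always the same. Gm25745 was no longer called in G1 under any other scaling or FPKM, where Mir3091 was called higher. They moved with the minimum. With 50 reads, 4 of 12 loci were called in G1 and 1 of 11 in G3. Against their hosts 2 of 6 were off in G1, 2 of 6 in G2 and 0 of 5 in G3. Of all rows with 50 reads 33.5%, 34% and 30.7% were called in G1, G2 and G3. With 1 read, 29 were called in G1 (8 higher, 21 lower), 24 in G2 (6 higher, 18 lower) and 14 in G3 (7 higher, 7 lower), beside 41.5%, 42.5% and 39.1% of all rows. Fewer loci enter at 50 reads (12 in G1) and more at 1 read (53 in G1, 48 in G2 and 38 in G3). When intervals had to leave out 1, 4 of 23 were called in G3, beside 29.5% of all rows. Against hosts 2 of 15 were then off in G2 and 3 of 14 in G3. A pseudocount of 1 read left 2 of 15 off their host in G2. In G2 the median of the loci stayed above 0 under every scaling, and at a minimum of 1 read it was -0.60. The G1 median was above 0 only with the upper quartile. Counting hosts that overlap in part was a choice made after seeing the data. It gave 9 of 18, 5 of 18 and 6 of 17 loci off their host in G1, G2 and G3. No share of all rows was taken for the host counts under these alternatives. Of 426 values of single loci under alternatives 36 left their interval. The sign changed in 0 of the 156 values of called loci and in 18 of the 270 values of loci not called, all under another scaling or FPKM. In 3 of the 18 the interval had left out 0. Gm27597 in G1 went from -0.29 to 0.05 (log2) with the upper quartile, and Mir682 in G3 went from 0.09 to -0.01 with the mRNA total and with FPKM. No paired analysis was possible because each group has 1 library, and leaving out a replicate could not be done for the same reason. Depth limits the 16 loci under 100 reads.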

Other observations

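Rows of other small RNA classes reached 20 reads more often than miRNA rows, though fewer of them were listed. Of 286 snoRNA rows, which stand for guides of RNA modification, 69 (24.1%) reached 20 reads, and of 110 snRNA rows, the RNAs of the spliceosome, 44 (40%) did, beside 24 of 373 miRNA rows (6.43%) and 20806 of 27924 protein-coding rows (74.5%).

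Other members of the near-identical groups were listed with few reads. Gm22759, a further Rpl37a-like miRNA locus, Gm23935, an exact copy of Gm24270, and Gm27288 and Gm27907, exact copies of Gm27597, were each at 1 in every library, while Mir703, which matches the Eef1a1-derived Gm26377, had 3, 2 and 1 reads. Loci of equal sequence were thus listed with unequal reads within the same library, such as 337 for Gm27597, 164 for Gm27529 and 1 for Gm27288 in BMM-ABs. How reads were shared among equal loci was not tested.

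Opposite-strand genes, which a library without strand marking cannot separate, were annotated at some members. Jmjd8, opposite Mir3082, had 101, 96 and 76 reads in the BMM, pOC and mOC libraries.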
